A study of Rattus norvegicus with 30 samples.

Results

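The urea cycle and the routes that break down amino acids were followed in primary rat hepatocytes treated with clofibrate, a lipid-lowering fibrate and an agonist of PPAR-alpha, a nuclear receptor. The set holds 46 genes listed by name. Each is represented by 1 probe set, the brightest by mean log2 signal over all 30 arrays among those that the platform's gene table pairs with that symbol alone. A probe set was found for 45 of the 46 genes, and 44 passed the filter on low signal and were tested, out of 18625 probe sets tested and 31042 on the array that are not controls. Amdhd1, the imidazolonepropionase of histidine breakdown, had no probe set with this symbol alone. Sds, serine dehydratase, lay below the filter.

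The cells were frozen hepatocytes of male Sprague Dawley rats, kept on collagen-coated plates under a Matrigel overlay and dosed on culture day 3. The 6 groups were DMSO alone (given as 1% in the labels), 60 uM clofibrate and 1000 uM clofibrate, each for 48 h and for 24 h, with 5 arrays per group from 5 separate wells. The titles of the clofibrate samples name the dose and no share of DMSO. The age of the rats, and whether the wells came from different animals, are not given in the sources used here, so p-values measure only the spread between these cultures. Values are MAS5 signals, a brightness on a linear scale, and changes are log2 changes ± the standard error of the limma fit, with n = 5 arrays per group, where a log2 change of 1 is a 2-fold difference. A gene is said to rise or fall where the p-value adjusted over all 18625 probe sets is under 0.05. Signals of different probe sets are not on a common scale, so genes are compared by their changes and not by their levels.

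Hepatocytes carry out most of the body's amino acid breakdown. Nitrogen released by transaminases and glutamate dehydrogenase enters the urea cycle, and the carbon skeletons enter the citric acid cycle or the synthesis of glucose, ketone bodies and, from tryptophan, NAD. Several of the enzymes, such as Tat and Tdo2, are known for strong hormonal control by glucocorticoids and glucagon. In mice, PPAR-alpha is known to hold down liver genes of transamination and of the urea cycle.

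The stretches just upstream of 4 genes are shown because these genes had the largest rises (Uroc1 and Oat) and the largest falls (Tat and Kmo) at 1000 uM among members with a RefSeq promoter window. Each line holds the 250 bases before the annotated start in the GRCr8 assembly, read 5′ to 3′ on the gene's strand: chr4:124401869-124402118 on the plus strand for Uroc1, chr1:196797755-196798004 on the minus strand for Oat, chr19:54856354-54856603 on the plus strand for Tat and chr13:90089271-90089520 on the plus strand for Kmo. Capitals mark a match to a searched motif.
Uroc1: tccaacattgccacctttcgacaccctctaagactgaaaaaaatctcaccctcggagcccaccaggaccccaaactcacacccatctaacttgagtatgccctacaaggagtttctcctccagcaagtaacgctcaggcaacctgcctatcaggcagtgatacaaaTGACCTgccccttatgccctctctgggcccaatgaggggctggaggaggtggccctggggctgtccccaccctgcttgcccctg
Oat: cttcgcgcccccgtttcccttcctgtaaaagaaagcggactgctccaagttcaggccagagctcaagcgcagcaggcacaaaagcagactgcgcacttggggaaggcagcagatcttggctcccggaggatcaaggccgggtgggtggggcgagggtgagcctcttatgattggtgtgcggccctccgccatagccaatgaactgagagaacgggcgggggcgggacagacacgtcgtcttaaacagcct
Tat: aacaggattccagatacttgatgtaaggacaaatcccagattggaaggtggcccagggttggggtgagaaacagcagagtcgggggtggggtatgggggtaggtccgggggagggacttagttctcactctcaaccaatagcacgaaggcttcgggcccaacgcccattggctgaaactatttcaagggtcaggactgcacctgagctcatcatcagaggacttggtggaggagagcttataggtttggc
Kmo: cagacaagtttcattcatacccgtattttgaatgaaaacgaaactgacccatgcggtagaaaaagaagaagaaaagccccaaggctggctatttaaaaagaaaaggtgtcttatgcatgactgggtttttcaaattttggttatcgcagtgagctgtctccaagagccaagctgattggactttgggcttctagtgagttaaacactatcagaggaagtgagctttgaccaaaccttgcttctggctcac

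The capitals in Uroc1 are AGGTCA, the nuclear receptor half-site, on the opposite strand at -84 to -79 from the start, and no searched motif is in the other 3 stretches. Both strands of the RefSeq windows (the 250 bases above plus the next 50) were searched in the 36 members with a window and in all 27457 genes. AGGTCA was in 10 of the 36 windows (27.8%, against 16.9% of all genes), TTGCNNAA, the C/EBP type of site, in 6 (16.7%, against 11.4%) and AGAACA, a glucocorticoid receptor half-site, in 5 (13.9%, against 21.6%). The direct repeat of AGGTCA spaced by 1 base was in 0 of the 36 windows and in 0.062% of all genes, and TGACGTCA, the cAMP response element, in 0 and in 2.0%. A match is a run of letters in this window and not a site of binding, and no match says only that the letters are not in this window.

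All arrays had a trimmed mean signal of 1501, which the authors' scaling fixes, and the highest signal on an array lay between 95378 and 118603. The residual SD of an array around its group lay between 0.243 and 0.297 except for replicate 1 of DMSO at 48 h, at 0.336. The 3′/5′ ratio averaged 2.33 to 2.56 per group for actin and 1.14 to 1.18 for GAPDH. Of 6 listed hepatocyte markers 5 were measured, and their summed signal was 352394 to 425426 in DMSO, 331113 to 420774 at 60 uM and 315453 to 334097 at 1000 uM at 48 h, and 395872 to 444555, 350034 to 427331 and 336193 to 377075 in the same order of groups at 24 h. For 7 of 8 Kupffer cell markers the sum was 9435 to 10846 in DMSO, 7833 to 8979.7 at 60 uM and 6523 to 7360.4 at 1000 uM at 48 h, and 10511.5 to 12334.5, 9195 to 9961 and 7617 to 9812 at 24 h. For 3 of 4 bile duct markers it was 12530.1 to 14990.2, 11666 to 13666 and 9809 to 10367.5 at 48 h, and 9765 to 11187, 9101 to 10029.6 and 7035 to 8050.5 at 24 h. Endothelial (5 of 6), stellate (7 of 7) and lymphoid (4 of 5) markers summed to 1302 to 2355, 2866 to 4440.4 and 517 to 1352 over all arrays. Some markers lay below the highest mean log2 signal of the TrpnX control probe sets in a group. These were at most 2 of the 3 bile duct markers, and 1 each of the 7 Kupffer, 7 stellate and 4 lymphoid markers. For hepatocyte and endothelial markers it was 0 in every group. Marker by marker, 2 of 5 tested hepatocyte markers fell at 1000 uM and 48 h (Fgb at -0.82 ± 0.06 and Serpina1 at -0.25 ± 0.05) and 4 of 5 at 24 h, with median changes of -0.06 and -0.18. Of 5 tested Kupffer markers only Lyz2 fell, by 0.85 ± 0.08 at 48 h and 0.59 ± 0.08 at 24 h, and the median over the 5 was 0.16 and -0.13. Epcam, the 1 bile duct marker tested, fell by 0.43 ± 0.05 and 0.44 ± 0.05. The sums of these 3 lists were lower at 1000 uM than in DMSO at both times, but for Kupffer cells this came with a fall in 1 marker alone. The markers were read under the authors' scaling alone, and their changes under another scaling were not tested. The part of these markers in the results below was not tested, and in bulk RNA fewer cells of a type and less RNA per cell cannot be told apart.

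At 1000 uM and 48 h, 23 of the 44 genes rose (15.2% of all probe sets did) and 10 fell (22.7% of all). At 1000 uM and 24 h, 12 rose (11.5% of all probe sets) and 19 fell (17.4%). At 60 uM and 48 h, 10 rose (4.62%) and 7 fell (4.43%), and at 60 uM and 24 h, 8 rose (3.43%) and 7 fell (3.14%). At 1000 uM more members rose than fell at 48 h, and more fell than rose at 24 h, a split that depends on the scaling of the arrays. Their median change was 0.17 at 1000 uM and 48 h, against -0.04 for all probe sets, and -0.08 at 1000 uM and 24 h, against -0.05. Most of the members are bright, and bright probe sets pass more often. Among the 3475 probe sets with a mean of at least log2 12, a level chosen after the data were seen, 30.7% rose and 34.9% fell at 1000 uM and 48 h, 26.1% rose and 28.4% fell at 1000 uM and 24 h, 13.7% and 11.7% at 60 uM and 48 h, and 11.8% and 7.86% at 60 uM and 24 h.

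The split at 24 h depends on how arrays are scaled. Scaling to the poly-A control probe sets, whose added amount the sources used here do not state, moved the median of all probe sets to 0.18 at 1000 uM and 24 h and to 0.11 at 1000 uM and 48 h. It gave 15 members higher and 11 lower at 1000 uM and 24 h, and 6 and 3 at 60 uM and 24 h, where quantile normalization gave 6 and 8. Under it Cps1, Fah, Cth, Mat1a and Gnmt stayed below 0 at 1000 uM and 24 h but no longer passed, while Glud1 (0.07), Ahcy (0.12) and Cdo1 (0.03) changed sign. Of the calls at 60 uM it ended 8 at 48 h (Ass1, Asl, Glud1, Got2, Bckdhb, Aass, Cth and Dmgdh) and 6 at 24 h (Ass1, Got2, Bckdhb, Cth, Sardh and Cdo1). The mean log2 signal of the poly-A control probe sets had an SD between arrays of 0.20 in DMSO at 48 h and of 0.05 to 0.11 in the other groups. Standard errors of ended calls were larger under this scaling, such as 0.115 against 0.052 for the difference of effects of Glud1 at 1000 uM. A call could thus end without a smaller change, as for Glud1 at 60 uM and 48 h (0.20, against 0.17 without it).

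**Figure D1:**
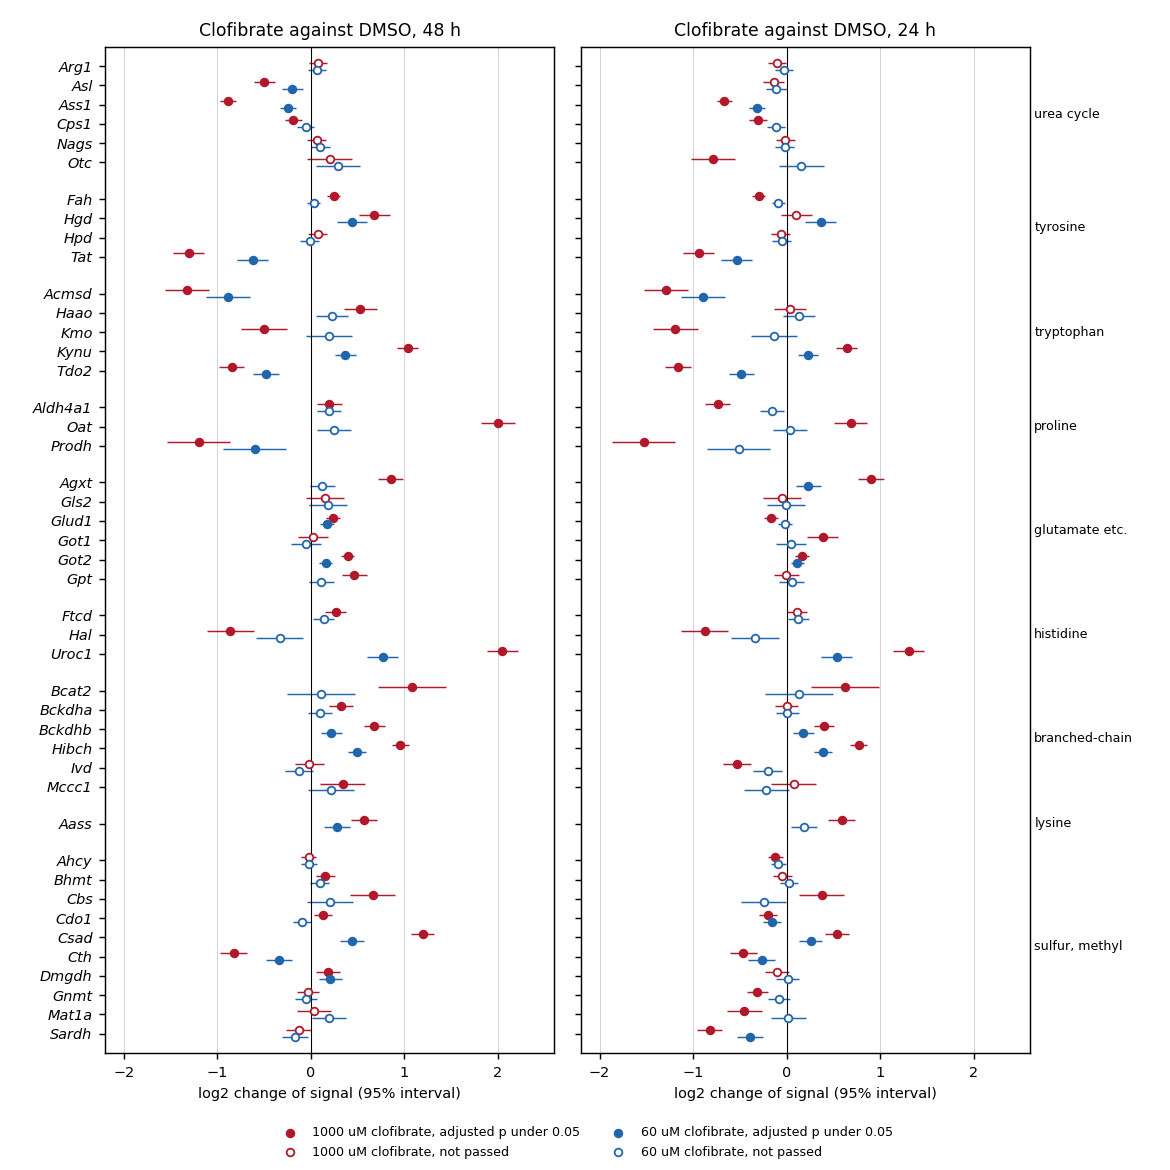
Log2 change of signal (x axis) of each of the 44 genes tested (y axis, grouped by route) for clofibrate against DMSO, at 48 h in the left panel and at 24 h in the right. Points are 1000 uM (red) and 60 uM (blue), bars are 95% intervals of the limma fit and filled points have an adjusted p under 0.05. Uroc1 and Oat lie farthest right at 48 h, at 2.05 and 2.00 for 1000 uM, and Prodh farthest left at 24 h, at -1.53. Scaled to the poly-A control probe sets, Glud1, Ahcy and Cdo1 lie right of 0 at 1000 uM and 24 h.

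In the urea cycle, the enzymes that make and split argininosuccinate fell, and every change from DMSO that passed at either dose or time was a fall. At 1000 uM 3 of 6 fell at 48 h (Ass1, Asl, Cps1) and 3 at 24 h (Ass1, Cps1, Otc). Ass1 joins citrulline with aspartate. Its signals at 48 h were 60323, 63399, 58510, 60648 and 67630 in DMSO, 54995, 51924, 49772, 51108 and 53046 at 60 uM and 32746, 32149, 32538, 34392 and 35604 at 1000 uM. At 24 h they were 61331, 64930, 68205, 60408 and 66108 in DMSO, 52579, 47763, 53684, 50279 and 54430 at 60 uM and 40733, 40283, 41630, 39246 and 40522 at 1000 uM. At both times each dose lay wholly below the one under it, with no overlap. The changes were -0.89 ± 0.04 at 1000 uM (adjusted p = 4.42e-18) and -0.25 ± 0.04 at 60 uM at 48 h, and -0.66 ± 0.04 and -0.31 ± 0.04 at 24 h. With poly-A scaling the values at 60 uM were -0.22 and -0.19 and no longer passed.

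Asl, which splits argininosuccinate into arginine and fumarate, had signals of 23107, 22447, 22073, 22830 and 23572 in DMSO, 19854, 20370, 18886, 19801 and 20468 at 60 uM and 17258, 15123, 16605, 15196 and 16530 at 1000 uM at 48 h, again without overlap between doses. Its changes were -0.50 ± 0.06 at 1000 uM and -0.20 ± 0.06 at 60 uM, and the call at 60 uM ended with poly-A scaling (-0.165, adjusted p = 0.468) and without replicate 3 at 60 uM and 48 h (-0.18, adjusted p = 0.0572). The 24 h arrays gave 21140, 24476, 26594, 22702 and 22404 in DMSO, 21970, 20602, 25067, 20358 and 20686 at 60 uM and 20373, 21528, 21981, 19647 and 22961 at 1000 uM. These 3 groups overlapped and neither dose passed, at -0.14 ± 0.06 for 1000 uM and -0.11 ± 0.06 for 60 uM. A second probe set of Asl gave -0.59 ± 0.04 at 48 h and -0.18 ± 0.04 at 24 h at 1000 uM, and passed at both times. At 60 uM it passed at both times too, at -0.22 ± 0.04 at 48 h and -0.14 ± 0.04 at 24 h (limma, adjusted p = 0.00032 and 0.026). The effect of 1000 uM at 48 h minus that at 24 h was -0.36 ± 0.08 for Asl (adjusted p = 0.00235) and -0.23 ± 0.06 for Ass1 (0.0123).

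Otc, the mitochondrial enzyme that makes citrulline, fell at 24 h and did not pass at 48 h at 1000 uM. At 48 h its signals were 2091, 2038, 2424, 2535 and 2301 at 1000 uM, against 1997, 1508, 2194, 1965 and 2320 in DMSO, which overlap, and the change of 0.20 did not pass (95% interval -0.04 to 0.44). Signals at 24 h were 1013, 697, 1080, 794 and 1034 at 1000 uM, against 1876, 1434, 1386, 1454 and 1769 in DMSO. All 5 treated arrays at 24 h lay below all 5 DMSO arrays, a change of -0.79 ± 0.12 (adjusted p = 2.04e-06). The difference of the 2 effects was 0.99 ± 0.17 (adjusted p = 9.87e-05). At 60 uM Otc was at 0.29 ± 0.12 at 48 h and 0.16 ± 0.12 at 24 h, neither of which passed.

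Cps1, which makes carbamoyl phosphate and takes the ammonia into the cycle, fell by 0.19 ± 0.05 at 48 h and by 0.31 ± 0.05 at 24 h at 1000 uM. The call at 48 h ended with median centring (-0.13) and with poly-A scaling (-0.04). A dimmer probe set of Cps1 fell by more at 1000 uM, with changes of -0.88 ± 0.06 at 48 h and -1.21 ± 0.06 at 24 h. At 60 uM it passed too, at -0.21 ± 0.06 at 48 h and -0.35 ± 0.06 at 24 h, where the brighter one did not. Its difference of effects at 1000 uM (48 h minus 24 h) also passed, at 0.33 ± 0.09 (limma, adjusted p = 0.0179), against 0.12 ± 0.06 for the brighter one, which did not. The brighter one had means of 61091 ± 569 at 1000 uM and 69791 ± 5177 in DMSO at 48 h (SD, n = 5 each), among the brightest signals of the arrays, and whether such signals are compressed was not tested. Arg1, the arginase that releases urea, was also among the brightest and did not pass at 1000 uM, with 95% intervals of -0.02 to 0.17 at 48 h and -0.20 to -0.00 at 24 h (adjusted p = 0.224 and 0.122). Nags, which makes the activator of Cps1, did not pass either, with intervals of -0.04 to 0.16 at 48 h and -0.12 to 0.09 at 24 h.

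In tyrosine breakdown the first enzyme fell at every dose and time tested, while at 1000 uM Hgd rose at 48 h and Fah rose at 48 h and fell at 24 h. Tat, tyrosine aminotransferase, had signals at 48 h of 17135, 20451, 17926, 23662 and 23608 in DMSO, 13382, 12880, 13442, 12524 and 14084 at 60 uM and 6771, 8268, 8194, 9510 and 8636 at 1000 uM. The 24 h signals were 20408, 20524, 23513, 20809 and 25427 in DMSO, 16062, 14103, 14866, 14851 and 16504 at 60 uM and 11716, 10776, 11725, 12345 and 11067 at 1000 uM. No array of one dose overlapped with another dose at either time. The changes at 1000 uM were -1.31 ± 0.08 at 48 h (adjusted p = 6.75e-15) and -0.94 ± 0.08 at 24 h, and at 60 uM -0.62 ± 0.08 and -0.53 ± 0.08.

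Hpd, the second enzyme, had means of 75457 ± 1350.4 at 1000 uM and 71828 ± 3708 in DMSO at 48 h (SD, n = 5 each) and did not pass at either time, with 95% intervals of -0.03 to 0.18 at 48 h and -0.17 to 0.04 at 24 h. Hgd, homogentisate dioxygenase, had signals of 2046, 1950, 2471, 2674 and 2554 in DMSO, 2837, 3026, 3728, 3175 and 3033 at 60 uM and 3426, 3859, 3558, 4001 and 3735 at 1000 uM at 48 h. All treated arrays were above DMSO, and Hgd rose by 0.68 ± 0.08 at 1000 uM and 0.44 ± 0.08 at 60 uM. The 24 h arrays gave 2701, 2436, 2528, 2629 and 2648 in DMSO, 3342, 3090, 3218, 3382 and 3634 at 60 uM and 3024, 2403, 2783, 3006 and 2725 at 1000 uM. There it rose at 60 uM, with all 5 arrays above DMSO (0.36 ± 0.08, adjusted p = 0.003) but was at 0.10 ± 0.08 at 1000 uM, which did not pass, and the difference of 1000 uM from 60 uM was -0.26 ± 0.08 (adjusted p = 0.0202). That last call ended with poly-A scaling (-0.15, adjusted p = 0.471), without replicate 2 at 1000 uM and 24 h (adjusted p = 0.084) and without replicate 5 at 60 uM and 24 h (adjusted p = 0.0649).

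Fah, fumarylacetoacetase, the last enzyme of the route, had signals of 33013, 33310, 34833, 34396 and 34659 at 1000 uM, against 28373, 28712, 28340, 28136 and 30237 in DMSO at 48 h. At 24 h its signals were 20269, 20752, 21628, 22516 and 21357 at 1000 uM, against 26987, 26300, 26786, 24686 and 26247 in DMSO. All treated arrays were above DMSO at 48 h and all were below DMSO at 24 h. The changes were 0.24 ± 0.03 at 48 h (adjusted p = 4.47e-07) and -0.30 ± 0.03 at 24 h (1.27e-08), and the difference of effects was 0.54 ± 0.05 (2.53e-09). With poly-A scaling the value at 24 h was -0.06 and no longer passed.

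In tryptophan breakdown the entry enzyme, the hydroxylase and the branch point decarboxylase fell, and kynureninase rose. At 1000 uM 3 of 5 genes fell at each time, with 2 higher at 48 h and 1 higher at 24 h. Tdo2, tryptophan dioxygenase, opens the ring. Its signals at 48 h were 59070, 58838, 58299, 58505 and 75446 in DMSO, 48887, 42712, 45010, 41417 and 43318 at 60 uM and 31493, 35275, 33961, 32760 and 38182 at 1000 uM. After 24 h the signals were 70968, 70049, 70501, 68118 and 71472 in DMSO, 57445, 45909, 51049, 48423 and 49025 at 60 uM and 35302, 28555, 33351, 31028 and 29242 at 1000 uM. The doses did not overlap at either time, although replicate 5 of DMSO at 48 h stood well above the other 4. The changes at 1000 uM were -0.85 ± 0.07 at 48 h and -1.16 ± 0.07 at 24 h (adjusted p = 1.31e-15), and at 60 uM -0.48 ± 0.07 at both times.

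Kmo, kynurenine 3-monooxygenase, had signals of 711, 757, 911, 651 and 802 at 1000 uM, against 976, 1081, 1082, 1251 and 1009 in DMSO at 48 h, without overlap. The arrays at 24 h had signals of 503, 622, 559, 566 and 348 at 1000 uM, against 1092, 1154, 1053, 1166 and 1376 in DMSO, also without overlap and farther apart. The changes were -0.50 ± 0.12 at 48 h and -1.19 ± 0.12 at 24 h, and their difference was 0.69 ± 0.17 (adjusted p = 0.00731). With poly-A scaling the value at 48 h was -0.35 and no longer passed. At 60 uM Kmo was at 0.19 ± 0.12 at 48 h and -0.13 ± 0.12 at 24 h and did not pass.

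Kynu, kynureninase, makes alanine and 3-hydroxyanthranilate, and Haao, the next dioxygenase, opens that ring. Kynu signals at 48 h were 5463, 5193, 5053, 5484 and 5733 in DMSO, 6199, 6633, 6764, 7754 and 7506 at 60 uM and 10748, 11031, 10985, 11886 and 10512 at 1000 uM. Every treated array was above every DMSO array, and the 1000 uM arrays were above the 60 uM arrays. At 24 h Kynu signals were 5046, 5119, 4807, 4787 and 4426 in DMSO, 5715, 5671, 5277, 5769 and 5911 at 60 uM and 7841, 6961, 7566, 7768 and 7657 at 1000 uM, again without overlap between doses. Kynu rose by 1.03 ± 0.05 at 1000 uM and 0.37 ± 0.05 at 60 uM at 48 h, and by 0.64 ± 0.05 and 0.23 ± 0.05 at 24 h. Haao signals were 9352, 9584, 9451, 10116 and 9764 at 1000 uM, against 5992, 5499, 6379, 7791 and 8144 in DMSO at 48 h, with all treated arrays above DMSO. Those of 24 h were 7238, 6710, 6675, 7050 and 5927 at 1000 uM, against 6806, 5890, 6467, 6011 and 7674 in DMSO, which overlap. Haao rose at 1000 uM and 48 h alone (0.53 ± 0.09, against 0.04 ± 0.09 at 24 h), with a difference of effects of 0.49 ± 0.12 (adjusted p = 0.00735).

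Acmsd, a decarboxylase, turns the pathway away from quinolinate and NAD, and peroxisome proliferators are known to lower it in rat liver. Its signals at 48 h were 1647, 1526, 1890, 1635 and 1839 in DMSO, 787, 745, 1246, 1114 and 825 at 60 uM and 591, 665, 596, 876 and 704 at 1000 uM. At 24 h they were 1993, 2066, 1951, 1790 and 2127 in DMSO, 1071, 1041, 1060, 1127 and 1045 at 60 uM and 817, 784, 758, 910 and 802 at 1000 uM. All treated arrays lay below all DMSO arrays at both times. Most of the fall was present at the lower dose, at -0.88 ± 0.12 at 60 uM and -1.33 ± 0.12 at 1000 uM at 48 h, and -0.89 ± 0.12 and -1.29 ± 0.12 at 24 h. The step between 60 and 1000 uM passed as well, at -0.44 ± 0.12 at 48 h and -0.39 ± 0.12 at 24 h, but not with poly-A scaling (-0.33 and -0.29).

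**Figure D2:**
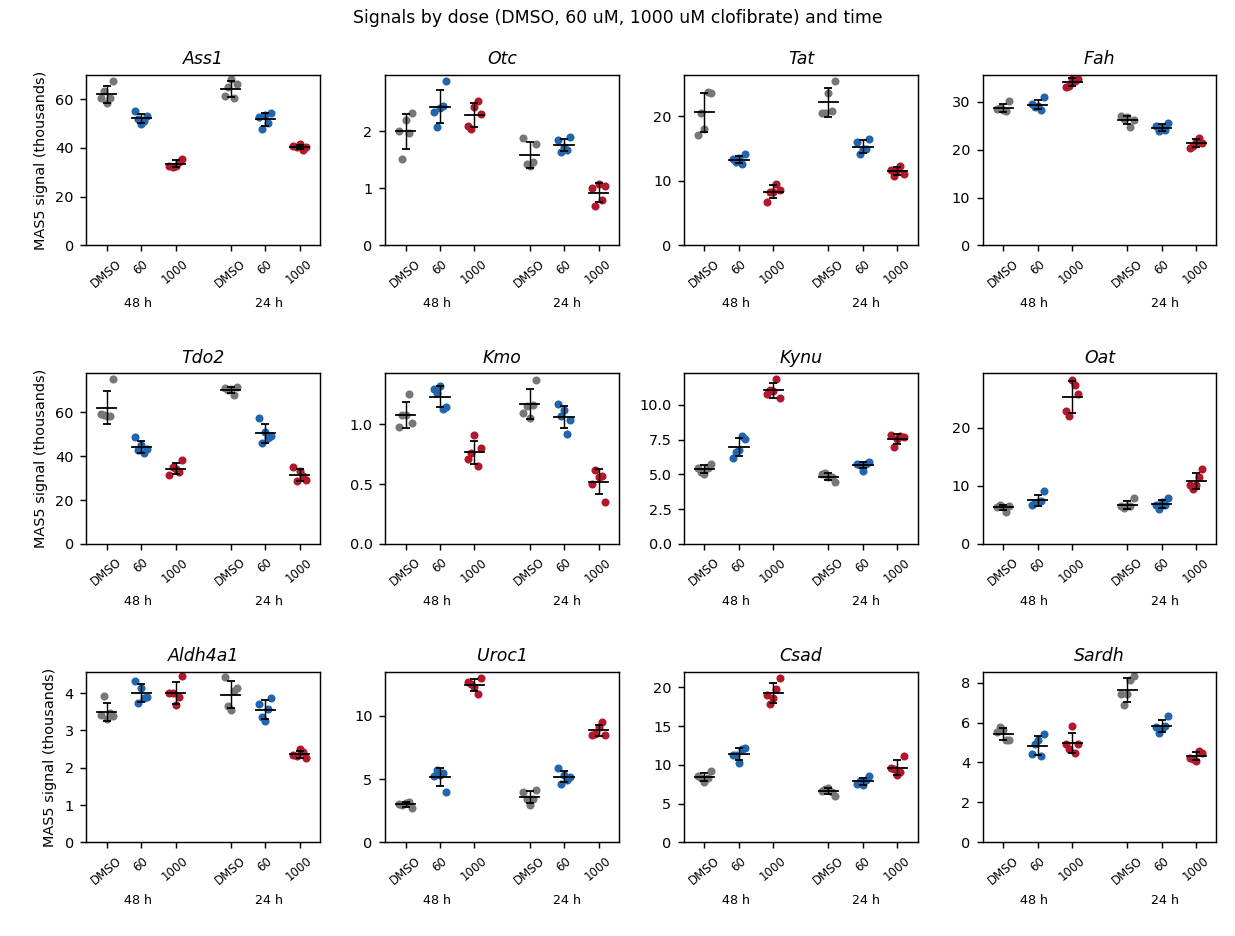
MAS5 signal divided by 1000 (y axis, linear and from 0) of 12 genes on each array, by dose in uM and time (x axis, 48 h at left and 24 h at right in each panel). Dots are arrays, the horizontal line is the mean and the bar the SD of 5 arrays. Oat reaches 22042 to 28272 at 1000 uM and 48 h, Otc and Sardh lie apart from DMSO at 1000 uM at 24 h but overlap with it at 48 h, and Fah lies above DMSO at 48 h and below it at 24 h.

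The proline and ornithine route split into a gene that fell, a gene that rose and a gene that did both. Prodh, proline dehydrogenase, had signals of 1227, 1097, 1173, 1514 and 1391 at 1000 uM, against 2890, 3067, 3606, 2743 and 2421 in DMSO at 48 h. At 24 h its signals were 724, 988, 1225, 1102 and 529 at 1000 uM, against 2766, 2952, 2307, 2132 and 2531 in DMSO. The groups did not overlap at either time, and the changes were -1.20 ± 0.16 at 48 h and -1.53 ± 0.16 at 24 h (adjusted p = 4.41e-09). At 60 uM Prodh fell by 0.60 ± 0.16 at 48 h, a call that ended without replicate 3 of DMSO or 4 at 60 uM (adjusted p = 0.0563 and 0.0626), and its value of -0.51 ± 0.16 at 24 h did not pass (adjusted p = 0.0562). The mean with a second probe set, which lay below the filter, was -0.22 at 60 uM and 48 h and did not pass.

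Oat, ornithine aminotransferase, links ornithine to glutamate semialdehyde. Its signals at 48 h were 6325, 6672, 6407, 5558 and 6604 in DMSO, 6732, 7095, 7261, 7330 and 9125 at 60 uM and 22869, 22042, 28272, 27451 and 25920 at 1000 uM. Signals at 24 h were 6457, 6255, 6571, 6532 and 7896 in DMSO, 6754, 6011, 7245, 6751 and 7891 at 60 uM and 10173, 9496, 10136, 11530 and 12980 at 1000 uM. All 1000 uM arrays lay above all other arrays of the same time, and the step was larger at 48 h. The rise at 1000 uM was 2.00 ± 0.09 at 48 h (4.00-fold, adjusted p = 6.99e-19) and 0.68 ± 0.09 at 24 h (1.61-fold), with a difference of 1.32 ± 0.12 (adjusted p = 8.64e-09). At 60 uM Oat was at 0.24 ± 0.09 at 48 h and 0.04 ± 0.09 at 24 h, and neither passed.

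Aldh4a1, which oxidises pyrroline carboxylate to glutamate, had signals of 4004, 4007, 3674, 3882 and 4458 at 1000 uM, against 3399, 3915, 3299, 3471 and 3382 in DMSO at 48 h, which overlap. The 24 h signals were 2333, 2317, 2505, 2410 and 2267 at 1000 uM, against 4435, 3653, 3541, 4046 and 4124 in DMSO, with all treated arrays lower. It rose by 0.20 ± 0.06 at 48 h (adjusted p = 0.0144), which no longer passed without replicate 5 at 1000 uM and 48 h (0.16, adjusted p = 0.0604), and fell by 0.74 ± 0.06 at 24 h (3.63e-11). The difference of effects was 0.94 ± 0.09 (1.30e-08).

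Among the enzymes of glutamate, transamination and serine, 4 of 6 rose at 1000 uM and 48 h (Got2, Gpt, Agxt and Glud1). Agxt, the alanine-glyoxylate aminotransferase, had signals of 9581, 8659, 9617, 8931 and 9537 at 1000 uM, against 5180, 4426, 4894, 6022 and 5261 in DMSO at 48 h. After 24 h the signals were 10687, 11253, 11127, 11659 and 11159 at 1000 uM, against 5618, 6186, 5918, 5801 and 6366 in DMSO. The groups did not overlap, and Agxt rose by 0.85 ± 0.07 at 48 h and 0.90 ± 0.07 at 24 h, with a difference of -0.05 ± 0.09. Got2, the mitochondrial aspartate aminotransferase, had signals of 27607, 27172, 28131, 27059 and 29614 at 1000 uM, against 21120, 20790, 20609, 21538 and 22374 in DMSO at 48 h. The arrays at 24 h had signals of 24827, 24862, 26442, 24510 and 24922 at 1000 uM, against 21937, 22556, 21920, 22242 and 23495 in DMSO. All treated arrays were above DMSO at both times, and Got2 rose by 0.39 ± 0.04 at 48 h and 0.16 ± 0.04 at 24 h. A second, dimmer Got2 probe set lay below the filter, and the mean of both gave 0.14 at 48 h and -0.02 at 24 h, neither of which passed. Gpt, alanine aminotransferase, had signals of 19910, 20976, 20912, 18910 and 21811 at 1000 uM, against 16172, 15880, 14715, 12884 and 14876 in DMSO at 48 h, without overlap. Those of 24 h were 18478, 18098, 16371, 18754 and 19454 at 1000 uM, against 18858, 19078, 17376, 16457 and 19630 in DMSO, which overlap. Gpt rose at 48 h (0.46 ± 0.07) and was at -0.00 ± 0.07 at 24 h, with a difference of 0.47 ± 0.09 (adjusted p = 0.000895).

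Glud1, glutamate dehydrogenase, which frees ammonia from glutamate, had signals of 36499, 38248, 37398, 39133 and 37644 at 1000 uM, against 32406, 31278, 30808, 31829 and 33780 in DMSO at 48 h, without overlap. At 24 h they were 32796, 31717, 35303, 32620 and 33276 at 1000 uM, against 34492, 38407, 37291, 37018 and 38208 in DMSO, which overlap. It rose by 0.24 ± 0.04 at 1000 uM and 0.17 ± 0.04 at 60 uM at 48 h, and fell by 0.16 ± 0.04 at 1000 uM at 24 h, where poly-A scaling turned the sign and median centring ended the call. With poly-A scaling the value at 60 uM and 48 h was 0.20 and no longer passed (adjusted p = 0.229). Its second probe set gave 0.27 ± 0.04 at 48 h and -0.19 ± 0.04 at 24 h at 1000 uM. Got1, the cytosolic aspartate aminotransferase, had signals of 5230, 5570, 5439, 5293 and 5513 at 1000 uM, against 4722, 5401, 6203, 5038 and 5322 in DMSO at 48 h. Signals at 24 h were 7191, 5443, 7030, 7218 and 5664 at 1000 uM, against 5052, 4162, 5467, 4949 and 5212 in DMSO. The groups overlapped at both times. Got1 rose at 24 h (0.38 ± 0.08) and was at 0.02 ± 0.08 at 48 h. Gls2, the liver glutaminase, did not pass at 1000 uM, with 95% intervals of -0.05 to 0.35 at 48 h and -0.25 to 0.15 at 24 h.

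Sds, below the filter and so not tested, had signals of 145, 100, 397, 348 and 264 in DMSO, 447, 337, 679, 291 and 293 at 60 uM and 89, 259, 133, 70 and 96 at 1000 uM at 48 h. The 24 h signals were 403, 464, 350, 463 and 421 in DMSO, 487, 120, 95, 437 and 171 at 60 uM and 301, 158, 126, 251 and 84 at 1000 uM. The arrays of a group spread widely. At 24 h the DMSO arrays lay above all those at 1000 uM.

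In histidine breakdown the first enzyme fell and the second rose. Hal, histidase, had signals of 423, 513, 811, 512 and 600 at 1000 uM, against 1016, 788, 1139, 1045 and 1119 in DMSO at 48 h. After 24 h the signals were 829, 833, 812, 908 and 697 at 1000 uM, against 1509, 1438, 1388, 1488 and 1644 in DMSO. Replicate 3 at 1000 uM and replicate 2 of DMSO overlapped at 48 h, and no arrays overlapped at 24 h. Hal fell by 0.86 ± 0.12 at 48 h and 0.88 ± 0.12 at 24 h.

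Uroc1, urocanate hydratase, whose upstream sequence with its AGGTCA match is shown above, had the largest rise of the 44 genes at 1000 uM, at both times. Its signals at 48 h were 3045, 2966, 3132, 3189 and 2734 in DMSO, 5218, 5761, 5358, 5486 and 3973 at 60 uM and 12647, 12510, 12303, 11771 and 12977 at 1000 uM. The arrays at 24 h had signals of 4011, 3471, 2943, 3450 and 4161 in DMSO, 5857, 4630, 5369, 4969 and 5198 at 60 uM and 8512, 8593, 9131, 9534 and 8495 at 1000 uM. The doses did not overlap at either time. The rise was 2.05 ± 0.08 at 1000 uM (4.13-fold, adjusted p = 7.54e-20) and 0.77 ± 0.08 at 60 uM at 48 h, and 1.30 ± 0.08 and 0.54 ± 0.08 at 24 h. Ftcd, which carries the last carbon to folate, rose at 1000 uM and 48 h (0.26 ± 0.05) and was at 0.11 ± 0.05 at 24 h.

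In branched-chain breakdown 5 of 6 genes rose at 1000 uM and 48 h, while 3 rose and 1 fell at 1000 uM and 24 h. Hibch, the hydrolase of the valine route, had signals of 11420, 10733, 11328, 13368 and 12795 in DMSO, 17259, 15891, 16924, 17060 and 16370 at 60 uM and 22509, 22539, 23328, 23649 and 23409 at 1000 uM at 48 h, with no overlap between doses. It rose by 0.96 ± 0.05 at 1000 uM and 0.49 ± 0.05 at 60 uM at 48 h, and by 0.77 ± 0.05 and 0.39 ± 0.05 at 24 h. Bcat2, the mitochondrial branched-chain aminotransferase, had signals of 1095, 1534, 1687, 1175 and 1666 at 1000 uM, against 924, 718, 531, 455 and 809 in DMSO at 48 h, without overlap. Those of 24 h were 1080, 827, 1076, 1065 and 805 at 1000 uM, against 618, 767, 510, 807 and 485 in DMSO, where the highest DMSO array lay above the lowest treated one. It rose by 1.08 ± 0.18 at 48 h and 0.62 ± 0.18 at 24 h.

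The branched-chain ketoacid dehydrogenase begins with the E1 subunits Bckdha and Bckdhb. Bckdhb signals were 15371, 14289, 15126, 14972 and 15672 at 1000 uM, against 9445, 8724, 9201, 10221 and 9602 in DMSO at 48 h. At 24 h they were 11805, 11396, 12174, 11897 and 12447 at 1000 uM, against 8106, 9315, 10564, 8855 and 8546 in DMSO. All treated arrays were above DMSO at both times. Bckdhb rose by 0.68 ± 0.05 at 48 h and 0.40 ± 0.05 at 24 h at 1000 uM, and by 0.22 ± 0.05 and 0.18 ± 0.05 at 60 uM, the last of which ended in 16 of 30 fits that left out 1 array. Bckdha signals were 5353, 4629, 4955, 5093 and 5268 at 1000 uM, against 4590, 4046, 3760, 4006 and 3846 in DMSO at 48 h, without overlap. Signals at 24 h were 3441, 3222, 3439, 3172 and 3312 at 1000 uM, against 3158, 3448, 3410, 3210 and 3367 in DMSO, which overlap. Bckdha rose at 48 h (0.32 ± 0.06) and was at -0.00 ± 0.06 at 24 h, though the mean with its second, dimmer probe set gave 0.11 at 48 h, which did not pass. Ivd, the leucine route's isovaleryl-CoA dehydrogenase, had signals of 4332, 4251, 4109, 4473 and 4344 at 1000 uM, against 3803, 4610, 4594, 3833 and 5060 in DMSO at 48 h, which overlap. The 24 h signals were 2775, 2935, 2657, 3052 and 3304 at 1000 uM, against 4284, 4425, 4442, 3741 and 4355 in DMSO, with all treated arrays lower. It was at -0.02 ± 0.08 at 48 h and fell by 0.53 ± 0.08 at 24 h, a difference of 0.51 ± 0.11 (adjusted p = 0.00135). Mccc1, a subunit of methylcrotonyl-CoA carboxylase, rose at 1000 uM and 48 h by 0.34 ± 0.12, a call that ended without replicate 1 or 3 of DMSO at 48 h, or 3, 4 or 5 at 1000 uM and 48 h, one at a time (0.26 to 0.30, highest adjusted p = 0.0917). Aass, which starts lysine breakdown, rose by 0.57 ± 0.07 at 48 h and 0.59 ± 0.07 at 24 h.

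In the sulfur and methyl group routes, 5 of 10 genes rose and 1 fell at 1000 uM and 48 h, while 2 rose and 6 fell at 24 h. Csad, which makes hypotaurine for taurine synthesis, had signals of 8509, 8348, 7735, 8343 and 9194 in DMSO, 11256, 11337, 10285, 12044 and 12129 at 60 uM and 18974, 17851, 18648, 19800 and 21245 at 1000 uM at 48 h, without overlap between doses. After 24 h the signals were 6677, 6921, 7043, 6449 and 5992 in DMSO, 7523, 7908, 7450, 8084 and 8576 at 60 uM and 9629, 9533, 8757, 9045 and 11210 at 1000 uM, where all treated arrays were above DMSO. It rose by 1.20 ± 0.06 at 1000 uM and 0.44 ± 0.06 at 60 uM at 48 h (adjusted p = 4.49e-17 at 1000 uM), and by 0.54 ± 0.06 and 0.26 ± 0.06 at 24 h. Cdo1, which oxidises cysteine in the step before, had signals of 37588, 37712, 38701, 36285 and 36095 at 1000 uM, against 34089, 33144, 32488, 33495 and 37530 in DMSO at 48 h, which overlap. The arrays at 24 h had signals of 30774, 29108, 30538, 30941 and 27953 at 1000 uM, against 34490, 34805, 33529, 32653 and 36172 in DMSO, with all treated arrays lower. Cdo1 rose by 0.13 ± 0.05 at 48 h, a call that ended in 7 of 30 fits that left out 1 array, and fell by 0.20 ± 0.05 at 24 h, where poly-A scaling turned the sign. The 2 transsulfuration enzymes went apart. Cbs, which makes cystathionine, rose by 0.66 ± 0.12 at 48 h and 0.38 ± 0.12 at 24 h, and the call at 24 h ended without replicate 2 of DMSO at 24 h (0.29, adjusted p = 0.072). Cth, which splits it to cysteine, had signals of 10329, 10766, 12366, 11920 and 12702 at 1000 uM, against 18467, 17939, 19435, 23085 and 24496 in DMSO at 48 h. Those of 24 h were 18892, 16970, 18747, 18356 and 15713 at 1000 uM, against 24598, 23401, 25028, 23789 and 24979 in DMSO. The groups did not overlap at either time, and Cth fell by 0.83 ± 0.07 at 48 h and 0.46 ± 0.07 at 24 h.

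Sardh, sarcosine dehydrogenase, had signals of 5507, 5792, 5624, 5111 and 5123 in DMSO, 4408, 4926, 5148, 4313 and 5402 at 60 uM and 4942, 4697, 5820, 4465 and 4927 at 1000 uM at 48 h, where the 3 groups overlapped. At 24 h they were 7422, 6880, 7420, 8145 and 8326 in DMSO, 5791, 5463, 5732, 5803 and 6317 at 60 uM and 4244, 4150, 4099, 4555 and 4498 at 1000 uM, with no overlap between doses. The change at 1000 uM was -0.13 ± 0.07 at 48 h, which did not pass (adjusted p = 0.125), and -0.82 ± 0.07 at 24 h (7.85e-12), with a difference of 0.69 ± 0.09. Its second probe set gave -0.12 ± 0.11 and -0.56 ± 0.11, and a difference of 0.44 ± 0.15 that did not pass (adjusted p = 0.0637).

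Mat1a, the liver S-adenosylmethionine synthetase, had signals of 12695, 12684, 14118, 14496 and 15404 at 1000 uM, against 11828, 10975, 12681, 17236 and 15967 in DMSO at 48 h. Signals at 24 h were 9026, 9158, 10189, 9416 and 10278 at 1000 uM, against 13959, 11800, 13538, 12258 and 14213 in DMSO. The groups overlapped at 48 h, and all treated arrays were lower at 24 h. Gnmt, which uses the methyl group to make sarcosine, had signals of 23561, 21438, 24481, 20204 and 23297 at 1000 uM, against 21872, 23418, 21524, 22782 and 25772 in DMSO at 48 h. The 24 h signals were 19946, 18141, 17942, 18726 and 18568 at 1000 uM, against 24502, 23286, 22655, 22396 and 22904 in DMSO. Gnmt likewise overlapped at 48 h and lay wholly below DMSO at 24 h. The changes were 0.03 ± 0.09 for Mat1a and -0.03 ± 0.06 for Gnmt at 48 h, and -0.45 ± 0.09 and -0.31 ± 0.06 at 24 h. Ahcy, which hydrolyses S-adenosylhomocysteine, fell at 24 h (-0.12 ± 0.04, a sign that poly-A scaling turned), a call that also ended with median centring, with no intensity trend, and without any 1 of replicates 2 and 3 of DMSO or 1, 2 and 4 at 1000 uM at 24 h (highest adjusted p of these 5 fits 0.0719). Bhmt, which returns homocysteine to methionine, rose at 48 h by 0.15 ± 0.05, a call that ended without replicate 1 of DMSO at 48 h (adjusted p = 0.0519). Dmgdh, which makes sarcosine from dimethylglycine, had signals of 12527, 12780, 12896, 12546 and 13749 at 1000 uM, against 12584, 11479, 11156, 10681 and 11024 in DMSO at 48 h. After 24 h the signals were 8445, 8954, 8248, 9847 and 9983 at 1000 uM, against 11018, 10058, 9068, 9266 and 9319 in DMSO. The groups overlapped at both times. Dmgdh rose at 48 h by 0.18 ± 0.06 at 1000 uM and 0.21 ± 0.06 at 60 uM, and quantile normalization ended both calls (0.11 and 0.19). The call at 1000 uM also ended without replicate 4 of DMSO or 5 at 1000 uM (adjusted p = 0.0571 and 0.0588), and that at 60 uM in 6 of 30 fits that left out 1 array.

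**Figure D3:**
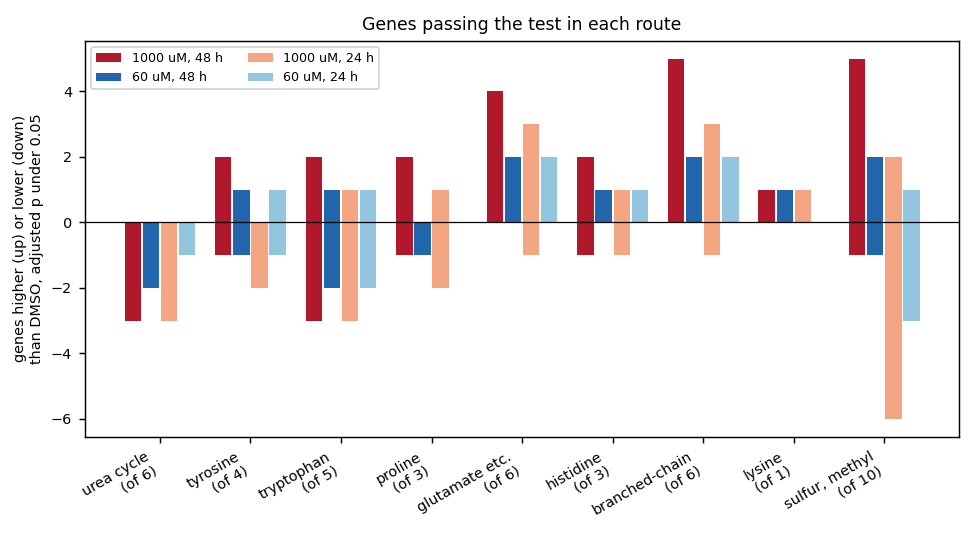
Number of genes (y axis, up for higher and down for lower than DMSO, adjusted p under 0.05) in each route (x axis, with the number tested), by dose and time. At 1000 uM and 48 h (red) the upward bars reach 5 in the branched-chain and in the sulfur and methyl group routes, and the urea cycle has downward bars alone. With scaling to the poly-A control probe sets 11 and not 19 members were lower at 1000 uM and 24 h.

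Set side by side at 1000 uM, the median change was -0.06 at 48 h and -0.22 at 24 h for the 6 urea cycle genes, 0.16 and -0.18 for the 4 of tyrosine, -0.50 and -1.16 for the 5 of tryptophan, and 0.20 and -0.74 for the 3 of proline and ornithine. For the 6 branched-chain genes it was 0.51 and 0.24, and for the 10 of the sulfur and methyl group routes 0.08 and -0.16. Single genes within a route lay far from its median. In the tryptophan route at 1000 uM and 48 h they ran from -1.33 (Acmsd) to 1.03 (Kynu), and in the proline route from -1.20 (Prodh) to 2.00 (Oat). Routes were not tested against each other.

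Between the doses, 1000 against 60 uM, 17 genes were higher (10% of all probe sets) and 10 lower (15.3%) at 48 h, and 10 higher (7.5%) and 17 lower (10.4%) at 24 h. With poly-A scaling these were 18 and 6 at 48 h and 11 and 8 at 24 h. The largest steps at 48 h were those of Oat (1.75 ± 0.09), Uroc1 (1.28 ± 0.08) and Bcat2 (0.98 ± 0.18) upward, and of Tat (-0.69 ± 0.08), Kmo (-0.69 ± 0.12) and Ass1 (-0.64 ± 0.04) downward. At 24 h the largest downward steps were those of Kmo (-1.06 ± 0.12), Prodh (-1.01 ± 0.16) and Otc (-0.95 ± 0.12). For Prodh the mean with its second probe set, which lay below the filter, gave a step of -0.32 at 24 h. That step did not pass (limma, adjusted p = 0.467).

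Time in culture was compared within each dose. In DMSO, 48 h against 24 h, 4 genes were higher (3.88% of all probe sets) and 8 lower (3.07%), and with poly-A scaling 7 and 2. Aass averaged 5036 ± 647 at 48 h and 8604 ± 869 at 24 h in DMSO (SD, n = 5 each), a change of -0.78 ± 0.07, and Csad rose by 0.35 ± 0.06. Under 60 uM 8 were higher (4.76%) and 7 lower (3.95%), with 6 and 2 under poly-A scaling. Under 1000 uM 25 were higher (9.91%) and 9 lower (11%). These comparisons under clofibrate were added after the data were seen. Under 1000 uM Otc rose by 1.32 ± 0.12, Oat by 1.22 ± 0.09, Csad by 1.01 ± 0.06 and Aldh4a1 by 0.76 ± 0.06.

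The effect of 1000 uM against DMSO at 48 h minus that at 24 h was above 0 in 22 genes that passed (4.17% of all probe sets) and below 0 in 5 (4.12%). Of the 44 genes 36 had a difference above 0, and the median was 0.28, against 0.00 for all probe sets. With poly-A scaling 7 passed above 0 (Otc, Fah, Oat, Aldh4a1, Uroc1, Csad, Sardh) and 1 below (Asl), and the medians were 0.20 and -0.08. Among the 3475 bright probe sets 12.4% passed above 0 and 11.7% below. The 5 below 0 were Tat, Asl, Cth, Got1 and Ass1. Leaving out 1 array ended the difference of Tat in 12 of 30 fits and that of Got1 in 13. Among those above 0 it ended that of Dmgdh in 12, of Tdo2 in 11 and of Gnmt in 3. All of these also ended with poly-A scaling and with no intensity trend. By route, the genes passing above 0 were 1 of 6 in the urea cycle, 2 of 4 in tyrosine, 4 of 5 in tryptophan, 2 of 3 in proline and ornithine, 3 of 6 in branched-chain and 6 of 10 in sulfur and methyl group breakdown.

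Read by call at the 2 times, 11 genes were higher at 1000 uM at both, 9 lower at both, 8 higher at 48 h and not passed at 24 h, 6 not passed at 48 h and lower at 24 h, and 4 (Aldh4a1, Cdo1, Fah, Glud1) higher at 48 h and lower at 24 h. The same joint counts were not made over all probe sets. A pass at 1 time alone is not a test of a difference between the times. The difference of effects passed in 5 of the 8 (not in Bhmt, Ftcd and Mccc1), in 5 of the 6 (not in Ahcy) and in all 4. Asl was lower at 48 h and not passed at 24 h, though its second probe set was lower at both. Got1 was not passed at 48 h and higher at 24 h. Arg1, Gls2, Hpd and Nags passed at neither time. Among the 4 that turned, the value at 24 h passed with poly-A scaling in Aldh4a1 alone.

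For 60 uM the same difference of effects passed in 0 of the 44 genes (limma, smallest adjusted p = 0.199), and in 0.0376% of all probe sets above 0 and 0.0483% below. At an unadjusted p under 0.05 there were 8, all 8 of them above 0, and 37 of the 44 differences were above 0, with a median of 0.07 against 0.02 for all probe sets. Quantile normalization passed 1 gene.

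**Figure D4:**
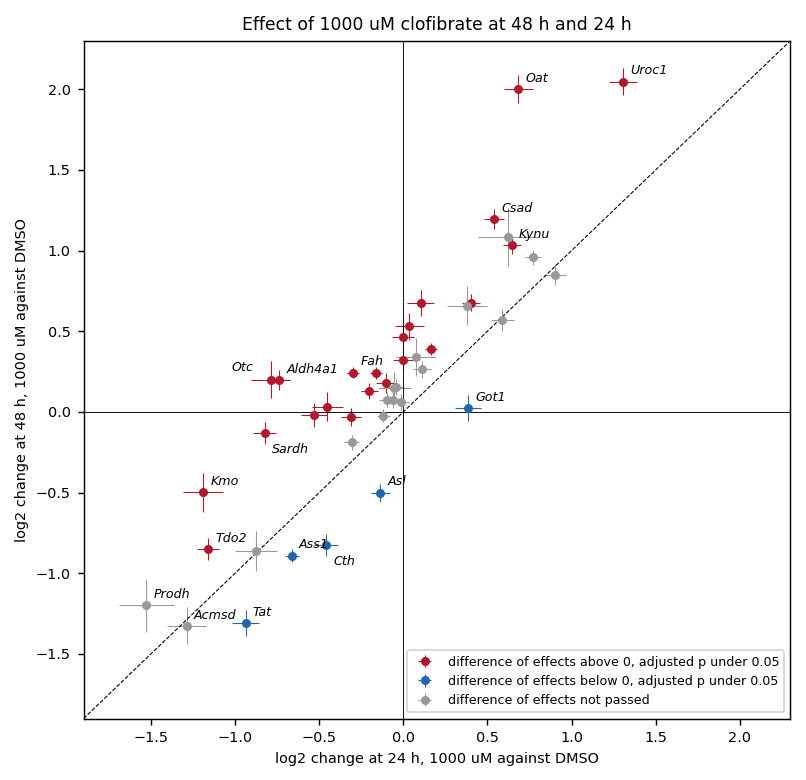
Log2 change for 1000 uM against DMSO at 48 h (y axis) and at 24 h (x axis) of the 44 genes, with standard errors as bars and the dashed line where both are equal. Red and blue points have a difference of effects above and below 0 with an adjusted p under 0.05, and 36 of the 44 points lie above the line. Otc and Aldh4a1 sit left of 0 at 24 h and above 0 at 48 h, at 0.20 each, a value that passed for Aldh4a1 and not for Otc. With scaling to the poly-A control probe sets, 7 of the 22 differences above 0 passed.

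A further 82 genes of these routes and their regulators were listed, of which 69 had a probe set and 65 were tested. Only the brightest probe set of each was read, also where a gene had several, such as Slc25a15 (6), Cebpa (5) and Ppm1k (3). At 1000 uM 35 rose and 14 fell at 48 h (15.2% and 22.7% of all probe sets), and 20 rose and 19 fell at 24 h (11.5% and 17.4%). At 60 uM 18 rose and 7 fell at 48 h (4.62% and 4.43%), and 12 rose and 5 fell at 24 h (3.43% and 3.14%). In branched-chain breakdown 12 of 15 rose at 1000 uM and 48 h. Ppm1k, the phosphatase that activates the ketoacid dehydrogenase, rose by 2.15 ± 0.12 at 48 h and 1.58 ± 0.12 at 24 h, and Bckdk, the kinase that inactivates it, fell by 0.52 ± 0.09 and 0.28 ± 0.09. All 5 other tryptophan genes tested rose at 1000 uM and 48 h, among them the kynurenine aminotransferases Aadat (1.12 ± 0.06) and Kyat3 (1.13 ± 0.11), and Qprt, which uses quinolinate for NAD (0.36 ± 0.05, against -0.20 ± 0.05 at 24 h). These 65 genes were read under the authors' scaling alone. At 24 h the poly-A control probe sets averaged log2 10.44 in DMSO and 10.20 at 1000 uM. Whether the value of Qprt at 24 h stays below 0 with poly-A scaling was not tested.

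Beside the urea cycle 1 of 4 genes rose and 2 fell at 1000 uM at each time. Of all probe sets 15.2% rose and 22.7% fell at 48 h, and 11.5% and 17.4% at 24 h. Slc25a13, the mitochondrial aspartate-glutamate carrier, rose by 0.48 ± 0.05 at 48 h and by 0.13 ± 0.05 at 24 h, where its arrays overlapped with DMSO (adjusted p = 0.0323), and Arg2, the mitochondrial arginase, did not pass. Slc25a15, the mitochondrial ornithine carrier, fell by 0.74 ± 0.04 at 48 h and 0.97 ± 0.04 at 24 h, and Glul, glutamine synthetase, by 0.57 ± 0.07 and 0.28 ± 0.07. In the proline route Prodh2, the hydroxyproline dehydrogenase, rose by 1.00 ± 0.06 at 48 h and 0.38 ± 0.06 at 24 h, and Hoga1, the last enzyme of hydroxyproline breakdown, fell by 0.81 ± 0.06 and 0.94 ± 0.06. Among 11 regulators 4 rose and 2 fell at 1000 uM and 48 h, against 15.2% and 22.7% of all probe sets. Among probe sets with a mean of at least log2 12 these shares were 30.7% and 34.9%. Creb3l3, a liver transcription factor of fasting, rose by 1.41 ± 0.05 at 48 h and 1.38 ± 0.05 at 24 h. Cebpa rose by 0.58 ± 0.08 and 0.33 ± 0.08, the glucocorticoid receptor Nr3c1 fell by 0.43 ± 0.05 and 0.46 ± 0.05, and the coactivator Ppargc1a fell by 0.77 ± 0.12 and 0.48 ± 0.12. Hnf4a, a master regulator of hepatocytes, did not pass, at -0.01 ± 0.05 at 48 h and 0.01 ± 0.05 at 24 h.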

How the data were processed

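Biotin-labelled RNA of 30 cultures was hybridised to 1-colour Affymetrix rat arrays, per the labels. The deposited values are MAS5 signals, an intensity on a linear scale that the authors computed per the submitters' processing notes, and every array has the same trimmed mean (2% taken off each end). Here they were taken to log2 with no constant added, and the 40% of probe sets with the lowest mean (up to log2 8.00, a signal of 255) were left out. Each of 6 group means was fitted on all 30 arrays with limma 3.58.1 (R 4.3.3, eBayes with an intensity trend), with Benjamini-Hochberg adjustment over 18625 probe sets in each of 11 comparisons. The fit was tested on simulated data. The platform table pairs 20826 probe sets with 1 symbol, 436 with several and 9780 with none, and symbols were updated by gene identifier.

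The members, routes and other lists were chosen with earlier results of these data known. Values on single arrays are given for the members with the largest rise and fall in each route and for those whose effect differed between the times. For many of these only some groups are printed, mostly DMSO and 1000 uM. Aass, the only lysine member, is given by its changes and its DMSO means, and other members by their changes. No set test was made. Alternatives were median centring, quantile normalization, scaling to the poly-A control probe sets, no filter, a filter at the 60th percentile, 64 added before log2, no intensity trend, array weights, the groups compared alone, the running sample number as a covariate, the mean of a gene's probe sets, and leaving out each array. Single genes were read under these alternatives for the members alone, and not for the other listed genes or the cell type markers. The comparisons of times within 60 and 1000 uM, the bright background and the block on sets of 6 consecutive sample numbers were added after the data were seen. The number of arrays limits the precision, and signals of MAS5 carry no counts.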

Additional observations from a re-analysis of the deposited data

Results flagged for a closer look

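In 27 of the 44 genes the effect of 1000 uM clofibrate against DMSO at 48 h differed from that at 24 h, by the test of the difference itself (limma, 5 arrays per group). Of these, 22 were above 0, as were 4.17% of all probe sets and 12.4% of those with a mean of at least log2 12. The other 5 were below 0, against 4.12% and 11.7%. Differences above 0 (48 h minus 24 h, log2) were found in the proline and urea routes for Oat (1.32), Otc (0.99) and Aldh4a1 (0.94). In tryptophan and tyrosine breakdown they were 0.69 for Kmo, 0.49 for Haao, 0.39 for Kynu, 0.31 for Tdo2, 0.57 for Hgd and 0.54 for Fah. Histidine's Uroc1 was at 0.74. In the sulfur and methyl group routes they were 0.69 for Sardh, 0.66 for Csad, 0.48 for Mat1a, 0.33 for Cdo1, 0.28 for Dmgdh and 0.28 for Gnmt. Among transaminases and branched-chain genes they were 0.47 for Gpt, 0.40 for Glud1, 0.23 for Got2, 0.51 for Ivd, 0.32 for Bckdha and 0.28 for Bckdhb. Differences below 0 were those of Tat (-0.37), Asl (-0.36), Cth (-0.36), Got1 (-0.36) and Ass1 (-0.23). Those of Tat, Got1, Tdo2, Dmgdh and Gnmt also ended in some fits that left out 1 array. With poly-A scaling 7 above 0 and 1 below still passed.

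An array stood apart from the other 4 of its group in 14 of 264 groups of 5, by a gap to its nearest neighbour of more than 0.71 of the group's range (Dixon's critical value), where chance gives about 5% of groups. Gap and range were taken on log2 signals. In DMSO at 48 h replicate 5 was the highest for Tdo2 (0.949 of the range) and Fah (0.719). In DMSO at 24 h replicate 5 was the highest for Oat (0.788), replicate 1 for Gls2 (0.795), and replicate 4 the lowest for Ivd (0.789). At 60 uM and 48 h replicate 5 was the highest for Oat (0.720) and the lowest for Uroc1 (0.734), replicate 4 the lowest for Prodh (0.837) and replicate 3 the lowest for Bckdhb (0.754). At 60 uM and 24 h replicate 3 was the highest for Gls2 (0.794). At 1000 uM replicate 5 was the highest for Hpd at 48 h (0.771), and at 24 h replicate 3 was the highest for Got2 (0.780), replicate 4 the highest for Nags (0.716) and replicate 2 the lowest for Hibch (0.711).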

How the results depend on the processing

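Of 238 calls of member genes over 11 comparisons, all 238 remained with a filter at the 60th percentile, 64 added, array weights or the running number as a covariate. Quantile normalization ended 8, no filter 11, the compared groups alone 12, median centring 15 and no intensity trend 16. New calls numbered 12 with quantile normalization, 10 with the compared groups alone and 6 with median centring. There were 0 with no filter or no intensity trend, and 3 to 8 with the settings that kept all 238. Scaling to the poly-A control probe sets ended 72 and reversed 3 at 1000 uM and 24 h, Glud1 (0.0719), Ahcy (0.115) and Cdo1 (0.0326). It also added 12 new calls and came with larger standard errors for the calls it ended. It gave 3 lower at 60 uM and 24 h, 11 lower at 1000 uM and 24 h, 5 higher and 4 lower at 60 uM and 48 h, 8 and 6 lower for 1000 against 60 uM at 24 h and 48 h, 7 higher and 2 lower for time in DMSO, 2 and 5 lower for time in 60 and 1000 uM, and 7 higher and 1 lower for the difference of effects at 1000 uM. Under it the median of all probe sets for time in DMSO was 0.16, against -0.01 without it. The lower count of that difference was 3 with median centring, no filter, no intensity trend or the compared groups alone, and quantile normalization gave 1 higher for the difference at 60 uM. The mean of a gene's probe sets ended 14 and reversed 5, Got2 at 60 uM (-0.165) and 1000 uM (-0.0183) at 24 h, between doses at 48 h (-0.098) and by time at 1000 uM (-0.122), and Bckdha for the difference of effects (-0.154). The cause of these changes was not tested.

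Leaving out each array gave 5 to 8 higher at 60 uM and 24 h (5 without replicate 1 or 4 of DMSO at 24 h or 3 at 60 uM and 24 h) and 3 to 5 lower for the difference of effects at 1000 uM, with 3 in 10 of the 30. Other counts stayed within 1.5 times. Without replicate 1 of DMSO at 48 h, whose residual SD was highest, 20 rose and 10 fell at 1000 uM and 48 h. The labels give no replicate numbers shared between groups, but their running numbers fall into 5 sets of 6 with 1 array of each group. A fit with these sets as a replicate block, chosen after the data were seen, kept 237 of the 238 calls and added 10 new ones. It ended 1, Bckdhb at 60 uM and 24 h (0.18, adjusted p = 0.0567). Deviations of arrays in a set had a median correlation of 0.00561 over 75 pairs, of which 1 was over 0.1. Over 300 pairs from different sets the median was -0.00266. For 12 of the 30 arrays the most alike array of another group was in the same one of the 5 sets. The numbers were not taken to pair the arrays, and these values do not settle whether they do. Whether the brightest signals, such as those of Arg1 and Cps1, are compressed was not tested.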
